A study of Mus musculus with 8 samples.

Results

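The activating arm of the circadian clock and some of its regulators were examined in the lacrimal gland (LG) through 6 genes, the activators Arntl, Clock and Npas2 and the regulators Nfil3, Rora and Cry1. They were taken by symbol from a table of 24552 genes, in which all 6 were present. Of these, 5 were counted often enough for the test across all genes, and Npas2 was not. The libraries came from exorbital LGs of female C57BL/6J mice, which make the watery layer of the tear film. In 4 libraries the mice had been fed ad libitum (AL), and in the other 4 they had been under 40% calorie restriction (CR) for 4 months, begun at 6 to 7 months of age and ended at 10 to 11 months. For CR mice the study describes a daily ration in the late afternoon, given after it introduces its second cohort. In that cohort the CR chow also held 40% more vitamins and micronutrients than the AL chow. There, chow and restriction cannot be told apart. The hour at which glands were collected is not given in the sources used here, so a shift in the timing of a rhythm and a change in its level cannot be told apart. No label says which cohort of mice a library came from.

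In mammals, BMAL1 (encoded by Arntl) pairs with CLOCK or with its paralog NPAS2, and the pair activates genes that carry an E-box, among them the Per and Cry genes, which then repress it. In a second loop, REV-ERB receptors (Nr1d1, Nr1d2) repress and ROR receptors (such as Rora) activate Arntl through a shared DNA element. NFIL3 represses genes with a D-box, where DBP, TEF and HLF activate. In many mouse tissues Arntl, Npas2 and Nfil3 transcripts peak at about the opposite time of day from those of Per2 and Dbp.

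Between 12051881 and 22156511 reads were counted on genes per library. Levels are given as CPM, read counts brought to a common library size with relative log expression (RLE) factors, and single values always follow the order of replicates 1 to 4. In a library without reads of a gene, 3 counts set the limit, which was 0.152 to 0.231 CPM, and this limit covers counting error only, because the reads carry no molecular identifiers. All 6 listed markers of lacrimal secretion were present, 1 of them (Pigr) called lower in CR, with summed levels of 177988 to 182597 CPM in AL and 119830 to 192978 CPM in CR. Adipocyte markers summed to 2.04 to 6.37 CPM in AL and 3.83 to 24.2 CPM in CR, fibroblast markers to 100.4 to 155 and 111 to 174 CPM, and endothelial markers to 7.55 to 11.6 and 11.1 to 14.5 CPM. Transcripts abundant in the parotid gland, of which 3 of 6 were called higher, summed to between 239 and 23594 CPM in AL and between 17949 and 231295 CPM in CR. CR replicate 4 was the lowest of the CR libraries and lay within the AL range. Nothing in the labels says that libraries with the same number share a cage or a day. The study's text counts 4 mice per diet, which matches 1 library per mouse.

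Of the 5 genes tested, 3 were lower in CR and none was higher. A gene was called where its fold change reached 1.5 in either direction with an adjusted p below 0.05, the limits the study used. The 3 genes were Arntl, Nfil3 and Clock. Of all 11211 genes tested, 0.785% were called lower and 1.2% higher, or 1.98% in all (134 higher and 88 lower, and 123 and 51 with total counts alone as the scaling). At an unadjusted p under 0.05, which 16.7% of all genes passed, the same 3 genes were lower and Cry1 was higher, and DESeq2 called 0 higher and 3 lower. For the 3 genes called, every CR library lay below every AL library, as it did for 5.2% of all genes tested. The diets overlapped for Rora and Cry1, and 9.79% of all genes were without overlap in either direction. In an edgeR fit that included a score of parotid markers none of the 3 was called (adjusted p = 0.242 to 0.408), with log2 fold changes of -4.12 for Arntl, -3.34 for Nfil3 and -1.27 for Clock and larger standard errors. The score ran from 1.52 to 7.32 in AL and from 9.30 to 13.16 in CR, so that fit cannot tell diet from score. Bulk RNA does not separate fewer cells of a type from less transcript per cell.

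**Figure D1:**
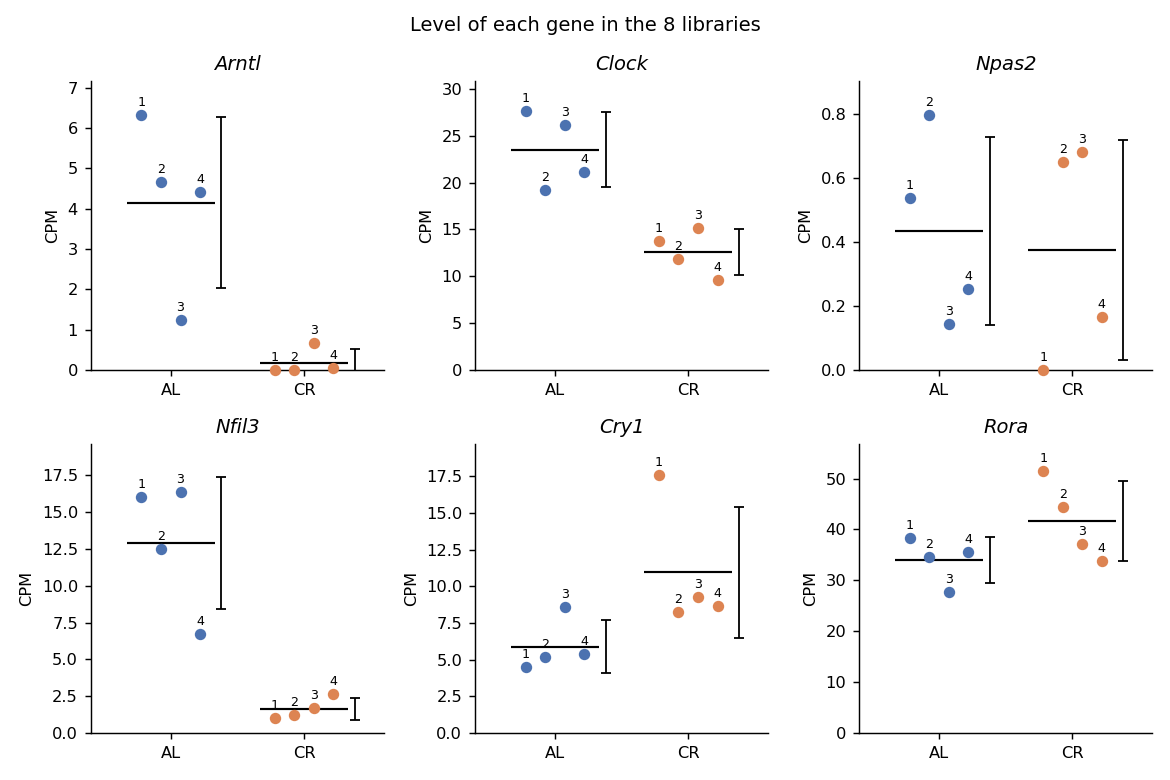
Level of each of the 6 genes in CPM (linear axis from 0) in AL (blue) and CR (orange) libraries, with replicate numbers beside the points, horizontal lines at the means and bars of 1 SD (n = 4), drawn only above 0. The diets are separate for Arntl, Clock and Nfil3 and overlap for Npas2, Cry1 and Rora.

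Arntl (Gene ID 11865) lies on the + strand of chromosome 7, from 113207465 to 113314126 of GRCm38, the build named mm10. It was counted 82, 76, 17 and 87 times in AL and 0, 0, 11 and 1 times in CR. Scaled for depth, its level was 6.31, 4.66, 1.24 and 4.41 CPM in AL and 0, 0, 0.680 and 0.0555 CPM in CR. Most of the AL signal was therefore absent in CR, where only replicate 3 was above the limit of 3 counts. The counts of 0 in CR replicates 1 and 2 allow levels of up to 0.212 and 0.177 CPM. Means were 4.15 ± 2.12 CPM in AL and 0.184 ± 0.332 CPM in CR (mean ± SD, n = 4 each). The fitted log2 fold change, CR against AL, was -4.44 (standard error 0.91, 95% interval -6.42 to -2.46, adjusted p = 0.0334 from edgeR's quasi-likelihood F test).

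The groups came closest in the libraries numbered 3. AL replicate 3 was the lowest AL library for Arntl and CR replicate 3 the highest CR library, and 1.24 and 0.680 CPM differ by 17 against 11 counts. AL replicate 3 also had the highest level of the pan-leukocyte gene Ptprc, 39.5 CPM against 10.7 to 13.8 CPM in the other AL libraries, and the highest sum of 5 macrophage markers, 191 CPM against 58.5 to 91.5 CPM. The part of these cells in the Arntl value was not tested. The log2 fold change was -7.21 when CR replicate 3 was left out and -4.74 when AL replicate 3 was. Arntl was called in these fits and without CR replicate 4. It was not called without AL replicate 1, 2 or 4 or CR replicate 1 or 2, where edgeR gave adjusted p-values of 0.0537 to 0.109 and log2 fold changes of -4.41 to -4.02. The exons of Arntl overlap 1 annotated gene on the other strand, but its last 600 bases, where reads of this 3' protocol fall, overlap none.

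Clock (Gene ID 12753, chromosome 5, - strand, 76209868 to 76304792) encodes the partner of BMAL1, which also carries histone acetyltransferase activity. Its level was 27.6, 19.2, 26.1 and 21.1 CPM in AL and 13.8, 11.8, 15.2 and 9.60 CPM in CR. The ranges were separate, with 15.2 CPM as the highest CR value and 19.2 CPM as the lowest AL value. Means fell by 46.5%, from 23.5 ± 4.01 to 12.6 ± 2.42 CPM (mean ± SD, n = 4 each). The log2 fold change was -0.90 (standard error 0.20, 95% interval -1.34 to -0.46, adjusted p = 0.0436 from edgeR's quasi-likelihood F test). Its call was narrow. When 1 library at a time was left out, Clock was called in 1 of 8 fits, that without CR replicate 4. In the fits without AL replicate 1, 2, 3 or 4 or CR replicate 1, 2 or 3, edgeR's adjusted p lay between 0.0589 and 0.145 and the log2 fold change between -0.997 and -0.81. With all 8 libraries, Clock was not called with total counts alone as the scaling (edgeR adjusted p = 0.118), with limma voom and sample weights (adjusted p = 0.0517) or with the parotid marker score in the edgeR fit (log2 fold change -1.27, standard error 0.39, adjusted p = 0.358).

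Npas2 (Gene ID 18143, chromosome 1, + strand, 39193731 to 39363236), whose protein can take the place of CLOCK beside BMAL1, was near the limit of detection. Its counts were 7, 13, 2 and 5 in AL and 0, 11, 11 and 3 in CR, or 27 against 25 in all. The levels ran from 0.146 to 0.797 CPM in AL and from 0 to 0.680 CPM in CR, with wide overlap. The mean of log2(CPM + 0.5) differed by -0.13 between CR and AL (exact permutation test, two-sided p = 0.743). Without AL replicate 2 the difference was 0.04, and without CR replicate 1 it was 0.10. A difference in Npas2 was not detectable at this depth. CR replicates 2 and 3 held 11 counts each, while Arntl had 0 and 11 in the same libraries.

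Nfil3 (Gene ID 18030) lies on the - strand of chromosome 13, from 52967209 to 52981073. It encodes a repressor of D-box genes that is also needed for natural killer and other innate lymphoid cells. The AL libraries had 16.0, 12.5, 16.4 and 6.74 CPM and the CR libraries 0.989, 1.24, 1.67 and 2.66 CPM. The lowest AL library, replicate 4, was above the highest CR library, also replicate 4. Both carried the lowest parotid marker sums of their diets, 239 and 17949 CPM, and the part of any parotid tissue in these values was not tested. The mean was 12.9 ± 4.47 CPM in AL and 1.64 ± 0.737 CPM in CR (mean ± SD, n = 4 each), a ratio of 7.87. The log2 fold change was -2.96 (standard error 0.37, 95% interval -3.77 to -2.14, adjusted p = 0.00389 from edgeR's quasi-likelihood F test). By unadjusted p, Nfil3 was number 10 of the 11211 genes tested. Each of the 8 fits without 1 library called it, with log2 fold changes from -3.29 to -2.78 and edgeR adjusted p-values of 0.00043 to 0.0249.

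Leukocyte markers were mostly too low to test or not called. The pan-leukocyte gene Ptprc had 10.7 to 39.5 CPM in AL and 4.22 to 9.26 CPM in CR (log2 fold change -1.66, edgeR adjusted p = 0.0635), so it was not called, although every CR value was below every AL value. Of the 5 T cell and 5 B cell markers in the table, 1 of each list was counted often enough to be tested, and neither was called. The T cell markers summed to 1.62 to 8.52 CPM in AL and 0.777 to 1.72 CPM in CR, and the B cell markers to 1.72 to 10.5 and 0.424 to 1.11 CPM. The T cell sums overlapped between diets, and the B cell sums did not. All 5 macrophage markers were tested and 1, Lyz2, was called lower, while their sums overlapped (58.5 to 191 CPM in AL and 35.6 to 72.8 CPM in CR). No listed marker of these cells had 0 counts in all libraries. Their part in the Nfil3 difference was not tested.

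Rora (Gene ID 19883, chromosome 9, + strand, 68653786 to 69388246), the receptor gene whose product activates Arntl, did not pass the test. Its level was 38.3, 34.6, 27.7 and 35.6 CPM in AL and 51.4, 44.5, 37.1 and 33.7 CPM in CR. CR replicates 1 and 2 lay above all AL libraries, while CR replicates 3 and 4 lay within the AL range. The log2 fold change was 0.29 (standard error 0.18, edgeR adjusted p = 0.472), and its 95% interval of -0.11 to 0.69 includes both a slight fall and a rise past 1.5-fold. Exons of Rora overlap 1 annotated gene on the other strand, and its last 600 bases overlap none.

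Cry1 (Gene ID 12952, chromosome 10, - strand, 85131700 to 85185064) encodes a cryptochrome that represses CLOCK and BMAL1. The AL libraries had 4.46, 5.15, 8.59 and 5.37 CPM, and the CR libraries had 17.6, 8.28, 9.28 and 8.65 CPM. The overlap came from AL replicate 3, which was above CR replicate 2. The log2 fold change was 0.89 (standard error 0.30, 95% interval 0.23 to 1.55, unadjusted p = 0.0122, adjusted p = 0.152 from edgeR's quasi-likelihood F test), so Cry1 was not called. It had a log2 fold change of 0.58 when CR replicate 1, the library with the highest value, was left out and of 1.12 when AL replicate 3 was. In AL replicate 3, Arntl and Rora were at their lowest AL levels and Cry1 at its highest.

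**Figure D2:**
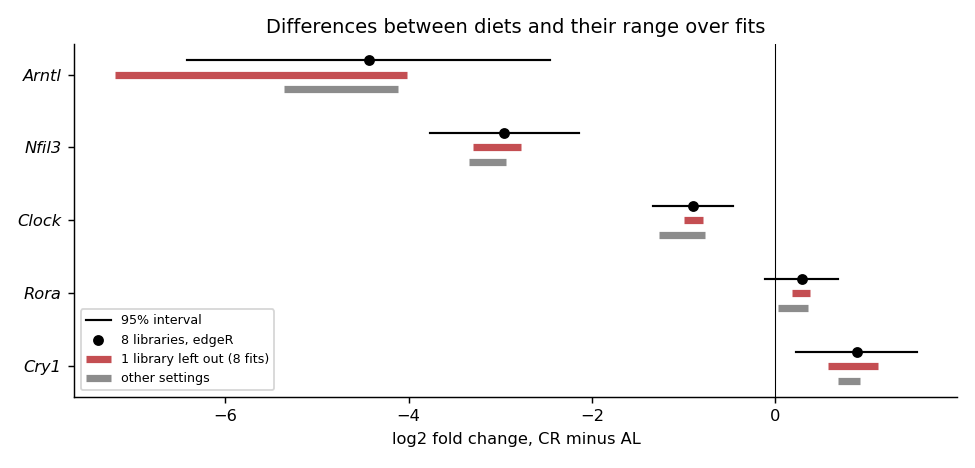
Log2 fold change of CR against AL for the 5 tested genes (points, 95% intervals as black lines), with the range over 8 fits that each left out 1 library (red) and over the other settings (grey). The ranges of Arntl, Nfil3 and Clock stay below 0 and those of Rora and Cry1 above it, and only Arntl spreads as widely as -7.21 to -4.02 when 1 library is left out.

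The binding elements of this loop were searched for by their letters around the starts of the 6 genes, because Arntl and Nfil3, the 2 largest falls, share a known class of regulator. RefSeq windows of 300 bases (250 before the start, 50 after it, GRCm38.p6) were found for 6 of 6 genes, 9 windows in all. The core of the ROR element, TAGGTCA on either strand, occurred in 2 of the 9 windows, those of Arntl and Nfil3, and in 2.61% of all 32851 windows. The E-box CACGTG and the related CACGTT, searched on both strands, occurred in the Cry1 window only of the 9, and in 7.15% and 4.68% of all windows. The D-box letters TTATGTAA and TTACGTAA occurred in none of the 9 and in 1.06% of all windows. These motifs do not overlap one another in the windows of the 6 genes. The sites are shown in the direction of the gene, with the matched letters in capitals.
Arntl: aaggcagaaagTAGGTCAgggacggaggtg
Nfil3: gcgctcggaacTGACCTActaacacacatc
Cry1: agaAACGTGaggtgccggtggtCACGTGgg

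The Arntl site is at chr7:113207530-113207559, with its motif at bases 31 to 37 after the later of 2 annotated starts. The Nfil3 site is at chr13:52981033-52981062, with its motif 12 to 6 bases before the start and on the opposite strand. Read on the strand of the motif, the Nfil3 site is gatgtgtgttagTAGGTCAgttccgagcgc, and it shares the 10 letters AGTAGGTCAG with the Arntl site. That run, noted after the sites had been seen, occurs in 0.0852% of all windows. The Cry1 site, at chr10:85185107-85185136, holds CACGTT, read on the opposite strand, and CACGTG with 13 bases between them. A match of letters is a description of the sequence, and binding was not measured. The windows of Clock, Npas2 and Rora hold none of these letters.

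The rest of the clock was described with 45 genes in 6 groups, listed from general knowledge. The lists were made with earlier results of these data known, so their counts are a description and not a test. Of the 42 tested, 10 were higher in CR (1.2% of all genes), 0 were lower (0.785% of all genes) and 32 were not called, and the median log2 fold change was 0.34 against 0.01 for all genes tested. The lowest CR library was above the highest AL library for 13 of the 42, as it was for 4.58% of all genes. At an unadjusted p under 0.05 (16.7% of all genes in either direction), 17 were higher and 1, the AMPK subunit gene Prkaa1 (named after its value was seen), was lower, and DESeq2 called 13 higher and 0 lower, against 413 and 316 of all genes.

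Receptors that share the ROR element with RORA were listed first because the windows of Arntl and Nfil3 hold its letters. REV-ERB beta (Nr1d2) rose from 27.2, 33.9, 32.4 and 27.7 CPM in AL to 87.0, 65.6, 69.3 and 50.2 CPM in CR (log2 fold change 1.17, edgeR adjusted p = 0.0108). REV-ERB alpha (Nr1d1) had 5.62 to 14.1 CPM in AL and 11.1 to 28.4 CPM in CR and was not called (log2 fold change 0.95, edgeR adjusted p = 0.190). Rorb had 40 counts in all libraries together and Arntl2, the paralog of Arntl, 18, so neither was tested.

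Of the 7 listed repressors of CLOCK and BMAL1, 3 were called higher, namely Per2 (log2 fold change 2.63), Per3 (2.47) and Bhlhe41 (1.99). Per1 (0.82), Cry2 (0.95), Bhlhe40 (0.94) and Ciart (0.90) were not, with edgeR adjusted p-values from 0.0546 to 0.674. DESeq2 called Per1 and Cry2 higher (adjusted p = 0.0117 and 0.0129). The log2 fold change of Bhlhe40 ran from 0.35 without CR replicate 2 to 1.72 without AL replicate 4, and that of Ciart from 0.51 without AL replicate 1 to 1.18 without CR replicate 1. At an unadjusted p under 0.05, 5 of the 7 were higher. Each PAR bZIP activator of the D-box, where NFIL3 represses, was called higher. Dbp had a log2 fold change of 3.61, Tef 1.81 and Hlf 1.66, and for the 3 genes no CR library overlapped an AL library.

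Enzymes that modify clock proteins and the coactivators and corepressors were mostly not called. Of 14 enzymes tested, 2 were higher, the deubiquitinase gene Usp2 (from 8.94 ± 3.97 to 62.8 ± 6.40 CPM, log2 fold change 2.81, edgeR adjusted p = 0.00157) and the casein kinase gene Csnk1e (from 6.29 ± 2.61 to 17.5 ± 4.51 CPM, log2 fold change 1.47, edgeR adjusted p = 0.0451). Of 16 coactivator and corepressor genes 1, Ppargc1a, was called (log2 fold change 2.85, edgeR adjusted p = 0.0497), with overlapping groups. Ppargc1a encodes PGC-1 alpha, a coactivator of ROR receptors. Its CR value in replicate 4, 3.44 CPM, was far under the 23.5 to 32.1 CPM of the other CR libraries, as was the parotid marker sum of that library, and its log2 fold change was -0.29 in a fit that included the parotid marker score. That score separated the diets, so the fit cannot tell diet from score. The part of any parotid tissue in the Ppargc1a value was not tested. Left out 1 at a time, AL replicate 1, AL replicate 2, CR replicate 2 or CR replicate 3 brought the number called higher among the 45 genes from 10 to 6, and without CR replicate 4 it was 13. In each of the 4 fits with 6 calls Bhlhe41 and Hlf were not called. Csnk1e and Ppargc1a were called in 1 of 8 such fits, that without CR replicate 4, and Usp2 in 8 of 8. With the parotid marker score in the edgeR fit, Dbp and Usp2 were the only genes called of the 10, both with an adjusted p of 0.0392. Per2, Per3, Bhlhe41, Nr1d2, Tef, Hlf, Csnk1e and Ppargc1a were not called there, with adjusted p-values of 0.0906 (Per3) to 0.937 (Ppargc1a), although the log2 fold change grew for 6 of these 8 genes, to 4.09 for Per2 (standard error 0.74 against 0.42 without the score), 3.83 for Per3, 2.64 for Bhlhe41, 2.34 for Hlf and 2.07 for Tef among them. That of Nr1d2 was 0.90 there against 1.17 without the score.

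**Figure D3:**
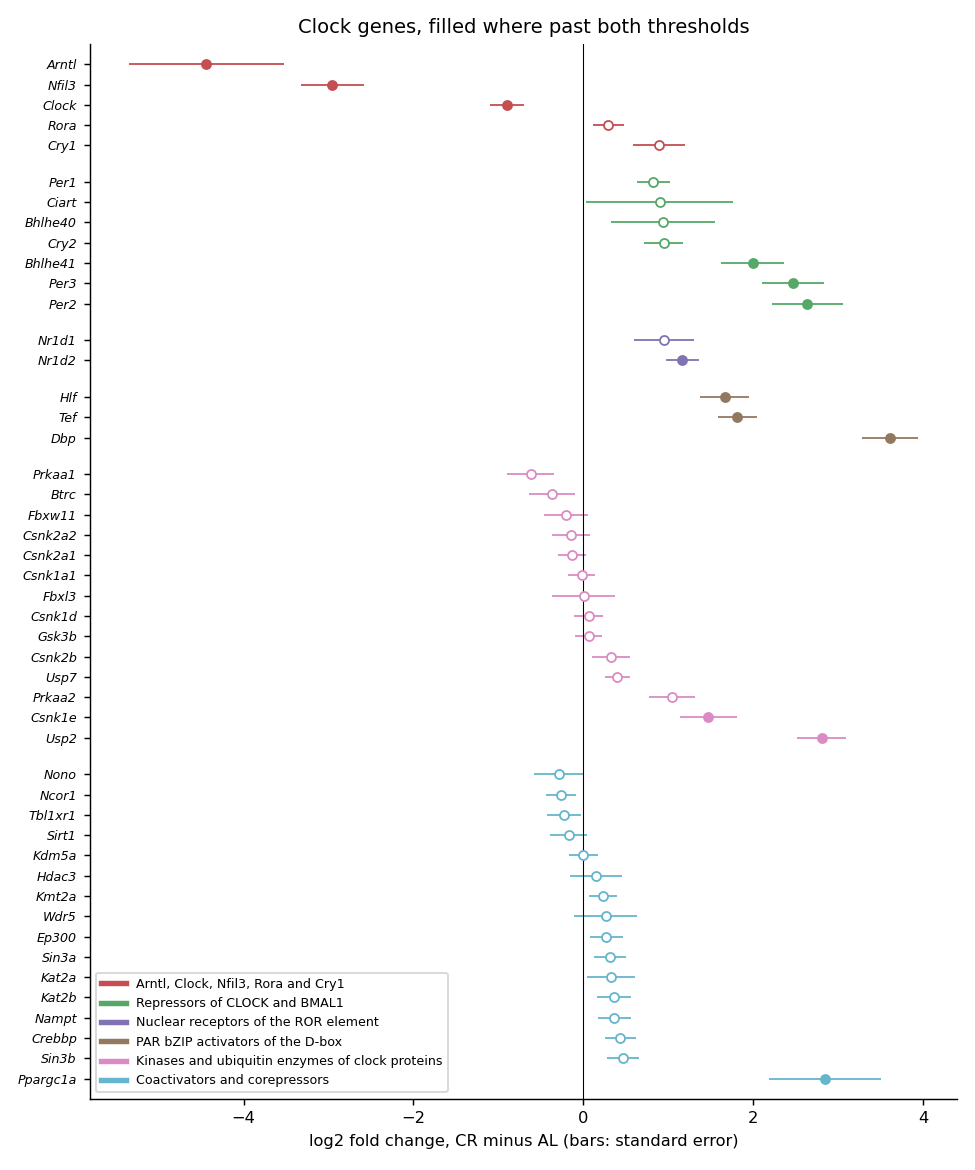
Log2 fold change of CR against AL with standard errors for the 5 tested genes (red) and 42 other clock genes by group, with filled points where both thresholds were passed. Arntl, Nfil3 and Clock are the only filled points below 0, and 10 filled points lie above it, up to 3.61 for Dbp.

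Ratios of transcripts within a library do not depend on how libraries are scaled to each other. The log2 ratio of Arntl to Dbp counts, with 0.5 added to each, was 2.32, 0.36, -1.06 and -0.02 in AL and -9.74, -10.58, -5.42 and -8.98 in CR. For CR replicates 1 and 2, where Arntl had 0 counts, the ratio is set by the added 0.5. The log2 ratio of Nfil3 to Dbp, which does not rest on zeros, was 3.66, 1.78, 2.63 and 0.59 in AL and -4.88, -5.16, -4.16 and -3.97 in CR. Nfil3 was thus counted more often than Dbp in every AL library and less often in every CR library. The log2 ratio of Clock to Per2 was 4.36, 1.39, 3.22 and 1.998 in AL and -0.29, -1.05, -0.95 and -1.82 in CR, again with separate ranges. That of Cry1 to Per2 was 1.74, -0.50, 1.62 and 0.03 in AL and 0.07, -1.57, -1.65 and -1.97 in CR, and there CR replicate 1 lay within the AL range. CR replicate 3 had the least negative Arntl to Dbp ratio of the CR libraries, and its Nfil3 to Dbp ratio lay within the range of the others. These ratios were chosen with earlier results of these data known and were not tested.

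**Figure D4:**
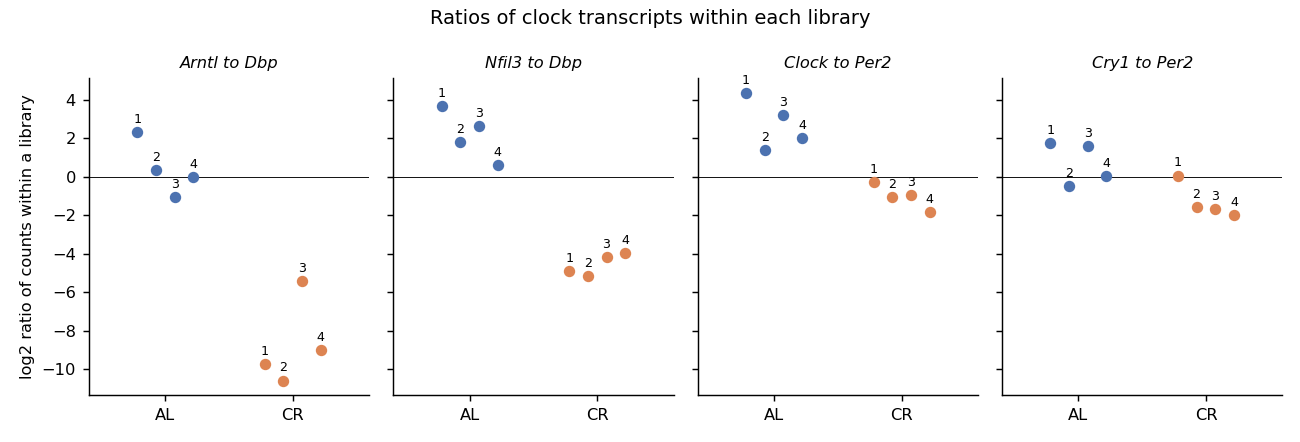
Log2 ratio of counts (0.5 added to each) of 4 gene pairs within each library, with replicate numbers beside the points, for AL (blue) and CR (orange). The diets are separate for Arntl to Dbp, Nfil3 to Dbp and Clock to Per2, and CR replicate 1 lies among the AL libraries for Cry1 to Per2.

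The 6 genes also differed in how evenly libraries of the same diet agreed. The SD of log2 CPM was 0.99 in AL and 1.28 in CR for Arntl, where low counts add to the spread, and 0.25 and 0.28 for Clock and 0.20 and 0.27 for Rora. The medians over all genes tested were 0.38 and 0.41. Nfil3 had 0.59 and 0.57, and Cry1 had 0.40 and 0.50. The patterns over the 8 libraries were compared by the root-mean-square difference of log2 CPM, each gene centred on its own mean. Among the 5 tested genes the nearest were Rora and Cry1 at 0.51 and Clock and Rora at 0.65, and the most distant were Arntl and Cry1 at 2.77. The median distance over all genes tested was 0.49 from Rora, 0.66 from Clock and 0.72 from Cry1. Both of the nearest pairs thus lay farther apart than the median distance from Rora. Arntl and Nfil3 were 1.25 apart.

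The genes with the most similar patterns were as follows. Nearest to Nfil3 were Lrrc73 (root-mean-square difference 0.51), Top2a (0.51), a topoisomerase of dividing cells, and Dcdc2a (0.56), against a median of 1.58 over all genes tested. Nearest to Clock were Fkbp1a (0.12), Tuba1b (0.15), a tubulin, and Cbwd1 (0.18), with a median of 0.66. Nearest to Arntl were the secretoglobin Scgb1b29 (0.88), whose reads close paralogs may share, Ly6f (0.89) and Dcdc2a (1.14), with a median of 2.31, and Dcdc2a thus stood near both Arntl and Nfil3. Nearest to Rora were Rev3l (0.07) and Dsg2 (0.09), with a median of 0.49. Nearest to Cry1 were Hs6st1 (0.21), Btc (0.23) and Ergic3 (0.24), with a median of 0.72. The measure favours genes with differences of a like size between diets and says nothing of shared control.

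A score of parotid tissue, taken as the average of log2 CPM over the 6 markers, was 7.32, 4.88, 5.67 and 1.52 in AL and 11.83, 13.16, 10.30 and 9.30 in CR, so it separated the diets as the 3 called genes did. With the score as a covariate, the log2 fold changes were -4.12 for Arntl (standard error 1.48), -3.34 for Nfil3 (0.67), -1.27 for Clock (0.39), 0.68 for Cry1 (0.65) and 0.04 for Rora (0.37). None of the 5 genes was then called, with edgeR adjusted p-values from 0.242 for Nfil3 upwards, and at an unadjusted p under 0.05 Arntl, Clock and Nfil3 were lower. In that fit 4 of all genes tested were called higher and 0 lower by edgeR, against 655 and 516 at an unadjusted p under 0.05. The replicates numbered 4 had the lowest score of each diet, and Nfil3 was at its lowest AL value in the AL library and at its highest CR value in the CR library. Without CR replicate 4, the CR library with the fewest parotid transcripts, the 3 genes were called, with log2 fold changes of -4.13 for Arntl, -3.29 for Nfil3 and -0.79 for Clock.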

How the data were processed

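RNA of 8 LG libraries, 4 AL and 4 CR, was sequenced from 3' ends. The authors deposited raw counts per gene, made with HTSeq after adapter trimming (cutadapt) and alignment to mm10 (STAR). They also deposited log2 values, counts divided by DESeq2 size factors plus 1. Recomputed from the counts, these differed by at most 0.000124 and were not used further. Whether counting used strand is not given in the sources used here.

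Of 24557 rows, 5 repeated symbols were dropped, and 11211 genes passed filterByExpr. CR was compared with AL by the quasi-likelihood F test of edgeR 4.0.16 (R 4.3.3) with RLE factors, and p-values were adjusted over all genes tested (Benjamini-Hochberg). The standard error was derived from the fold change and F. Npas2, which failed the filter, was compared by an exact permutation test over 70 splits, whose smallest p is 0.0286. On simulated counts for 11211 genes, the CR against AL fit called 75 of 94 genes changed by 2 log2 units, 20 of 100 changed by 1 log2 unit and 9 unchanged genes.

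Some genes that the lists and the rule for named genes give are not reported here. The 6 genes and the lists were chosen with earlier results of these data known. Named were the 6 genes, the listed repressors, receptors of the ROR element, Arntl2 and PAR bZIP genes, called genes of the other lists with up to 4 examples, markers, and for each tested gene the 3 nearest patterns (log2 CPM with a prior count of 2). The alternatives were TMM, upper-quartile and no factors, DESeq2 1.42.0, limma 3.58.1 voom with sample weights, no filter, a minimum of 10 counts per library, adjusted p alone, a pseudocount of 1, a replicate block, the parotid score as covariate and leaving out each library. Positions come from GENCODE vM21 and sequences from RefSeq (GRCm38.p6).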

Additional observations from a re-analysis of the deposited data

Results flagged for a closer look

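Of 12 groups of 4 values, 2 held a library far from the rest, and chance flags about 1 group in 20. Arntl in CR replicate 3, at 0.680 CPM, lay above the other CR libraries, which were at or under 0.0555 CPM. Its gap to the nearest library was computed as 0.918 of the range of the group. The other libraries held 0, 0 and 1 counts, under the limit of 3 counts. The size of the gap and the flag therefore rest on levels that were not resolved. Cry1 in CR replicate 1, at 17.6 CPM, lay above the others at 8.28 to 9.28 CPM, with a gap of 0.893 of the range.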

How the results depend on the processing

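The directions of Arntl, Nfil3, Clock, Rora and Cry1 held in every fit run.

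Left out 1 at a time, libraries gave log2 fold changes of -7.21 to -4.02 for Arntl and -0.997 to -0.79 for Clock, differences of -0.31 to 0.10 for Npas2, 35 to 453 genes higher and 25 to 247 lower among all genes, and 6 to 13 higher among the listed clock genes. The cause of the lost calls was not tested. Fewer libraries also mean a weaker test.

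Clock was not called with total counts alone (-0.83, adjusted p = 0.118) or with limma voom (-0.77, adjusted p = 0.0517). With the parotid score as a covariate Arntl (-4.12), Clock (-1.27) and Nfil3 (-3.34) were not called, and Ppargc1a reversed (-0.29). The score separated the diets, so this fit cannot tell diet from score. Per2, Per3, Bhlhe41, Nr1d2, Tef, Hlf and Csnk1e lost their calls there as well (adjusted p = 0.0906 to 0.466), with larger standard errors and, except for Nr1d2 (0.90), larger log2 fold changes, and Dbp and Usp2 kept theirs. Csnk1e was not called with upper-quartile factors or total counts alone, nor Ppargc1a with TMM or upper-quartile factors (adjusted p = 0.05004 to 0.0623). Npas2 reversed without AL replicate 2 (0.04) and without CR replicate 1 (0.10), where the exact permutation test gave p = 0.943 and 0.771.

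Genes called higher among all genes, 134 as reported, numbered 413 with DESeq2, 237 with voom, 271 without the filter and 4 with the parotid score (655 at an unadjusted p under 0.05 in edgeR). Genes called lower, 88 as reported, numbered 316, 160, 165 and 0 (516 unadjusted) in the same order, and 51 with total counts alone. With a replicate block 388 were higher and 312 lower, and the block kept the calls of Arntl (-4.60), Nfil3 (-2.93) and Clock (-0.91) and added those of Per1 (adjusted p = 0.0133) and Cry2 (0.0221), which were also called without the filter (0.0397 and 0.0429), and Cry2 with voom (0.0336). Same-numbered libraries correlated at 0.15, 0.08, 0.24 and 0.46, so the numbers were not taken as pairs, and not every library correlated best with its own number.

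Arntl and Npas2 could not be fitted with at least 10 counts in every library, and Npas2 had no fit with voom or the parotid score. Low counts limit Arntl in CR and Npas2 in both diets.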
